A study of Mus musculus with 6 samples.

Results

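Cells in the middle of the cell cycle were examined in 3 libraries of cultured mouse dendritic cells (DCs), to ask which lineage was dividing under each condition. A cell was counted as cycling when it held UMIs (unique molecular identifiers, single captured transcript molecules) of both Mki67 and Top2a, UMIs of at least 2 of the 4 genes Birc5, Pclaf, Ube2c and Stmn1, and 0 UMIs of Elane and Prtn3, the protease genes of granulocyte-monocyte progenitors. Eligible cells had at least 300 genes, at least 5000 and under 100000 UMIs and under 10% mitochondrial UMIs. Of 19860 eligible cells of the DC libraries, 2837 were cycling, and the 6 libraries of the study held 25671 eligible cells in all.

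The cultures were grown with GM-CSF from the bone marrow of C57/BL6 mice aged 6 weeks, and only the cells in suspension were used. The untreated DCs received no stimulus and no nucleofection. VD3 stimulated DCs had been exposed on day 7 to vitamin D3 (calcitriol) at 1e-06 M for 24 h. Ndrg2-KO DCs had been nucleofected with Cas9 protein and 3 guide RNAs against Ndrg2, a gene of the N-myc downregulated family, and remained a mixed pool with no cloning or selection step. No library of nucleofected cells with a non-targeting guide was analysed here, so that nucleofection and loss of Ndrg2 cannot be told apart. Each condition was 1 library of 1 pool, so no test between conditions was possible. All intervals are exact 95% intervals that cover counting error only, not the spread between cultures or animals.

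GM-CSF expands myeloid precursors of bone marrow into a mixture of macrophage-like cells, premature DCs and mature DCs. Division is a property of the precursors, and DCs leave the cell cycle as they mature and switch on the chemokine receptor gene Ccr7. Entry into S phase is driven by D-type cyclins with Cdk4 or Cdk6, which free E2F transcription factors to switch on DNA replication genes, while the genes of mitosis are switched on later through the CHR and CCAAT elements of their promoters.

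Promoters of the genes that marked the cycling cells were searched for these elements. In RefSeq promoters of mouse build GRCm38.p6, which run from 250 bases before to 50 bases after a gene's start, 5 of the 6 marker genes were found (all but Stmn1). Only the 250 bases before the start were searched. The CHR element TTTGAA, searched on both strands, was in 3 of these 5 promoters and in 18.3% of all 27025. CCAAT, searched the same way, was in 4 of 5 and in 37.5% of all. The E2F letters TTTCCCGC or TTTGGCGC were in 0 of 5 and in 1.51% of all. The following windows of 30 bases on the gene's strand show CHR elements of 3 marker genes, of the mitotic cyclin gene Ccnb2 and of its kinase gene Cdk1, and E2F letters of the replication helicase genes Mcm5 and Mcm6, with the motif or its reverse complement in capitals.
Mki67, chr7:135716478-135716507, minus strand: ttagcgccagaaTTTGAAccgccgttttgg
Top2a, chr11:99024351-99024380, minus strand: ctattggtccatTTTGAAgattctcccgcc
Ube2c, chr2:164769888-164769917, plus strand: ggagggttgcaaTTCAAAcgcgggcggcgg
Ccnb2, chr9:70421704-70421733, minus strand: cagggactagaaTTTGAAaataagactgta
Cdk1, chr10:69352966-69352995, minus strand: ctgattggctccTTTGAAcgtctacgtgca
Mcm5, chr8:75109349-75109378, plus strand: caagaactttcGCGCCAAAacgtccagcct
Mcm6, chr1:128359734-128359763, minus strand: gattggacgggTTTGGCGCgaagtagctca
Among genes that mark mitosis, 42 of 48 G2/M genes were found in the promoter table, and the CHR letters were in 17 of them (40.5%) and the E2F letters in 2 (4.76%). Among genes of DNA replication, 30 of 42 S phase genes were found, with the CHR letters in 6 (20.0%) and the E2F letters in 8 (26.7%). CCAAT was in 32 of the G2/M promoters and in 21 of the S phase promoters, which is 76.2% and 70.0%. A match is a description of the letters in this window, and binding was not measured.

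Cycling cells were 19.2% of the untreated DCs (1163 of 6056, 18.2 to 20.2), 12.1% of the VD3 stimulated DCs (767 of 6361, 11.3 to 12.9) and 12.2% of the Ndrg2-KO DCs (907 of 7443, 11.5 to 13). With every cell drawn down to 5000 UMIs, the same rule marked 11.7%, 8.22% and 5.95%. The untreated culture thus held the largest share of the 3 libraries at either depth, while the order of the other two changed with depth and is not read. Among cells with under 5% mitochondrial UMIs the shares were 16.3%, 7.58% and 13.4%. Cycling cells were deeper than the other cells, with medians of 28653, 23546 and 25601 UMIs in untreated, VD3 stimulated and Ndrg2-KO DCs against 16322, 14166 and 16160.5 in the others. At an equal 5000 UMIs they still showed more genes, with medians of 1976, 1875 and 1911 against 1635, 1625 and 1753. Their mitochondrial share was close to that of the other cells, at medians of 5.61%, 6.56% and 6.56% against 5.6%, 6.23% and 6.69%.

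The markers chose the cells, so their values only describe the choice. All 4 of Birc5, Pclaf, Ube2c and Stmn1 were seen in 990, 623 and 759 of the cycling cells of the untreated, VD3 stimulated and Ndrg2-KO libraries, and just inside the rule 49, 42 and 37 cells held 2 of the 4. Mki67 had a median of 8, 7 and 4 UMIs and Top2a of 11, 9 and 7, and both genes were at 1 UMI in 34, 28 and 33 cells. Just outside the rule, 264, 274 and 369 cells held either Mki67 or Top2a but not both, and 41, 37 and 51 cells held both with fewer than 2 of the other genes. A further 359, 310 and 89 cells met the rule apart from UMIs of Elane or Prtn3, and 122, 87 and 53 of these held 1 such UMI in all. With those cells kept, cycling shares would be 25.1%, 16.9% and 13.4%. Libraries shared 7, 10 and 12 barcodes of eligible cells in pairs, and 1 such pair was of cycling cells.

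Ndrg2 was scarce in cycling cells. Its summed level was 2.24 (1.80 to 2.76) UMIs per 1000000 (CPM) in untreated, 0.885 (0.524 to 1.40) in VD3 stimulated and 0.579 (0.316 to 0.971) in Ndrg2-KO cycling cells, from 88, 18 and 14 UMIs. In the other cells it was 5.71, 1.5 and 0.924 CPM. The assay counts tags from transcript 3′ ends and does not read the edited part of the gene, so these values cannot check the knockout.

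Cycling cells carried the genes of premature DCs and macrophages. A lineage was read from lists of known genes, by drawing each cell to 5000 UMIs and asking whether it showed at least 3 genes of a list. The premature DC list (Ccr2, Cd34, Chil3, Csf1r, Cx3cr1, Fn1, Lyz2 and Mmp12) was met by 94.9% of untreated cycling cells (93.5 to 96.1) and by 38.4% of the other cells. In VD3 stimulated DCs the shares were 45.5% (41.9 to 49.1) and 19.0%. In Ndrg2-KO DCs they were 99.4% (98.7 to 99.8) and 79.3%. The macrophage list of 12 genes (among them Adgre1, Mrc1, the complement genes C1qa, C1qb and C1qc, Trem2, Ms4a7 and Gdf15) was met by 55.5% of untreated cycling cells against 23.0% of the others. It was met by 78.1% against 26.8% in VD3 stimulated DCs and by 84.7% against 69.6% in Ndrg2-KO DCs. In every library both lists were therefore more frequent in the cycling cells, with the narrowest gap in Ndrg2-KO DCs, where most other cells met them too. Among the cells with under 5% mitochondrial UMIs, of which 333, 104 and 191 were cycling, the macrophage list was met by 37.2%, 50% and 68.1% of cycling cells. In that setting 13% of the Ndrg2-KO cells with the macrophage list were cycling, against 13.4% of all eligible Ndrg2-KO cells. The macrophage list was thus not more frequent in the cycling Ndrg2-KO cells there. With at least 2 or at least 4 genes asked for, the premature DC list was met by 79.9% or 12.3% of VD3 stimulated cycling cells.

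**Figure D1:**
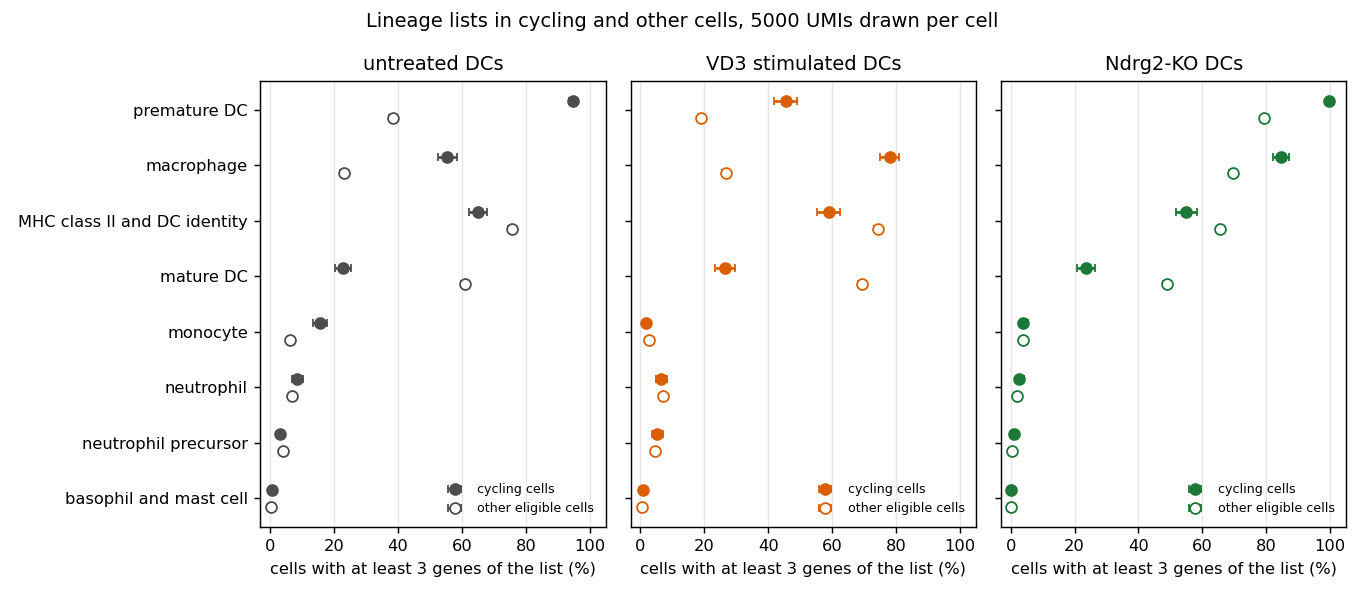
Share of cells with at least 3 genes of each lineage list (x axis, %), with 5000 UMIs drawn per cell, in the 3 libraries, for cycling cells (filled) and other eligible cells (open), with exact 95% intervals. Filled points lie right of open points for the premature DC and macrophage lists and left of them for the mature DC list (22.8% against 61.0% in untreated DCs).

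The mature DC list (Cacnb3, Ccl5, Ccl22, Ccr7, Fscn1, Il4i1, Socs2 and Tmem123) ran the other way. It was met by 22.8% of untreated cycling cells (20.4 to 25.3) against 61.0% of the others, by 26.5% (23.4 to 29.7) against 69.4% in VD3 stimulated DCs and by 23.6% (20.9 to 26.5) against 49.0% in Ndrg2-KO DCs. At full depth, where deep cells pick up more genes, 71.3%, 65.2% and 85.1% of cycling cells and 78.4%, 79.7% and 83.8% of the others met this list, so that the direction turned in Ndrg2-KO DCs. Cells with the highest 6% of doublet scores were frequent among cycling cells, at 15.5%, 12.8% and 12% against 5.01%, 7.15% and 5.13% of the others. Without them the mature DC list was met by 10.6%, 17.0% and 19.2% of cycling cells.

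Ccr7 itself, the receptor that guides mature DCs to lymph nodes, was seen at 5000 UMIs in 16.5%, 19.9% and 8.49% of cycling cells of untreated, VD3 stimulated and Ndrg2-KO DCs. It was seen in 56.7%, 65.2% and 34.9% of the other cells. In cells with the neutrophil list and neither DC list it was seen in 2 of 106, 3 of 227 and 0 of 3 cells, or 1.89% and 1.32% in the first 2 libraries. All cells were drawn to the same 5000 UMIs for this, from medians of 16020.5, 11596 and 18183 UMIs in those cells. Csf1r, the receptor for M-CSF, was seen in 62.1%, 58.4% and 63.9% of cycling cells, against 0.943% and 7.05% of the same neutrophil-list cells of untreated and VD3 stimulated DCs. Since Ccr7 and Csf1r are members of the DC lists that these neutrophil-list cells were chosen not to meet, their low shares are partly set by that choice and are no independent background. How much of either gene in cycling cells was free RNA was not tested.

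Taking the lists together separates the cells that met a premature DC or macrophage list from those that met the mature DC list alone. Of the cells with the premature DC list, 37.0%, 24.7% and 14.8% were cycling in untreated, VD3 stimulated and Ndrg2-KO DCs, of those with the macrophage list 36.4%, 28.5% and 14.4%, and of those with the mature DC list 8.16%, 4.97% and 6.27%. Without the highest doublet scores the last 3 shares were 3.64%, 3.15% and 5.0%, and with under 5% mitochondrial UMIs they were 5.03%, 1.44% and 7.96%. Of the cells with a premature DC or macrophage list and no mature DC list, 34.8% were cycling in untreated DCs (862 of 2475, 33.0 to 36.7), 27.7% in VD3 stimulated DCs (485 of 1751, 25.6 to 29.9) and 17.2% in Ndrg2-KO DCs (691 of 4020, 16 to 18.4). Of the cells with the mature DC list alone, 12 of 2646 were cycling in untreated DCs (0.454%), 27 of 3360 in VD3 stimulated DCs (0.804%) and 1 of 1083 in Ndrg2-KO DCs (0.0923%). Of those few cells, 9 of 12 and 20 of 27 had the highest doublet scores in the first 2 libraries, and 0 of 1 in the third. Dividing cells with a mature DC profile alone were therefore rare in each library.

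Cells that met both kinds of list were cycling in 42.0% (253 of 603), 24.2% (176 of 727) and 9.14% (213 of 2331) of cases in untreated, VD3 stimulated and Ndrg2-KO DCs. Among these cycling cells 60.1%, 39.2% and 28.6% had the highest doublet scores, against 2.20%, 1.86% and 6.95% of the cycling cells with a premature DC or macrophage list only. Their median depth was 41843 UMIs against 26676 in untreated DCs, 34579.5 against 22566 in VD3 stimulated DCs and 25087 against 25611 in Ndrg2-KO DCs, so that they were deeper in the first 2 libraries and not in the third. How much of this class is pairs of cells was not tested.

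**Figure D2:**
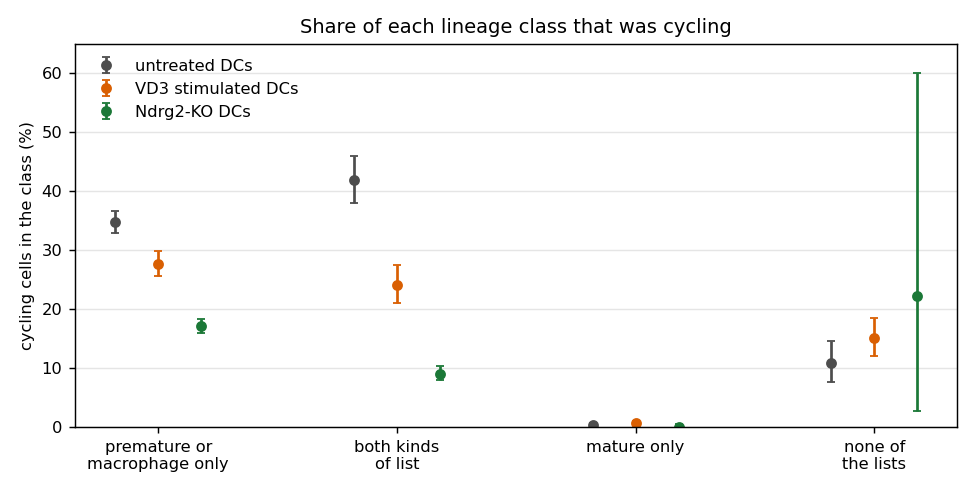
Share of the eligible cells of each lineage class that were cycling (y axis, %) in untreated (grey), VD3 stimulated (orange) and Ndrg2-KO (green) DCs, with exact 95% intervals; the class is read at 5000 UMIs per cell. Cells with the mature list alone were cycling in under 1% of cases in each library, and the class with no list held 9 cells in Ndrg2-KO DCs.

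Lists of other myeloid cells were met by smaller shares of the cycling cells, apart from the list of MHC class II and DC identity genes. The neutrophil list (S100a8, S100a9, Csf3r and others) was met by 8.43%, 6.39% and 2.76% of cycling cells and by 6.87%, 7.24% and 1.99% of the others. The neutrophil precursor list, with the granule genes Ngp, Camp and Ltf, was met by 3.1%, 5.22% and 0.992% of cycling cells and by 3.96%, 4.59% and 0.520% of the others. The monocyte list was met by 15.5%, 1.69% and 3.97% of cycling cells and by 6.25%, 2.61% and 3.75% of the others, and it shares Ccr2 with the premature DC list. Of the cells with the monocyte list, 37.0%, 8.18% and 12.8% were cycling. The list of conventional DC type 1 genes (Xcr1, Clec9a, Batf3 and others) was met by 2.67%, 3.0% and 1.87% of cycling cells and by 2.41%, 2.38% and 2.94% of the others. The list of MHC class II and DC identity genes was met by 65.1%, 58.9% and 54.9% of cycling cells, below the 75.7%, 74.4% and 65.6% of the others. At full depth it was met by 82.5%, 76.1% and 83.4% against 84.4%, 81.7% and 82.7%, so that the direction turned in Ndrg2-KO DCs.

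At least 3 basophil and mast cell genes were shown at 5000 UMIs by 7, 7 and 0 cycling cells, and 0 of 907 allows a share of up to 0.406%. The B cell list was met by 4, 1 and 0 cycling cells, the plasmacytoid DC list by 1, 0 and 2, the erythroid and megakaryocyte list by 1, 1 and 0, and the lists for T and NK cells and for stroma by 0 in each library. Granulocyte-monocyte progenitor genes were met by 2, 1 and 0 cycling cells, but the rule had removed cells with 2 genes of that list, so this count says nothing of progenitors. Of the cells it removed, 98, 45 and 1 held at least 2 further progenitor genes.

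The lineage was also read from whole profiles without cell cycle genes. Eligible cells with UMIs of neither Mki67 nor Top2a were clustered in each library, and each cycling cell was given to the cluster most common among its 15 nearest noncycling cells. When noncycling cells were held out of this last step alone, 98.4%, 97.0% and 96.4% returned to their own cluster. These cells had helped to form the clusters, so the return was largely set in advance. It does not measure how well cycling cells were assigned. In untreated DCs, 965 cycling cells (83.0%, 80.7 to 85.1) lay nearest to cluster 1, which held 19.8% of the noncycling cells. This macrophage-like cluster was led by Igf1, the mannose receptor gene Mrc1, C1qa, Fn1 and Ccr2. Of its cycling cells 98.2% met the premature DC list and 61.2% the macrophage list, so its name does not set it apart from premature DCs. The neutrophil precursor-like cluster 3 took 72 cycling cells (6.19%) and held 7.60% of noncycling cells, but 88.9% of its cycling cells met the premature DC list and 40.3% the neutrophil precursor list. The mature DC-like clusters 0, 2 and 4 took 8, 0 and 0 cycling cells while holding 39.5%, 17.4% and 6.02% of noncycling cells. A further 84 cells (7.22%) lay nearest to the unnamed cluster 6, and 98.8% of these had the highest doublet scores.

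In VD3 stimulated DCs, 608 cycling cells (79.3%, 76.2 to 82.1) lay nearest to the macrophage-like cluster 2, which held 16.8% of the noncycling cells and was led by Serpinb2, Ptx3, C1qa and Saa3. Cluster 5, also macrophage-like, took 67 cells (8.74%), of which 71.6% had the highest doublet scores. Of its cycling cells 98.5% met the mature DC list and 74.6% the macrophage list, so its name does not set it apart from the mature clusters. The neutrophil precursor-like cluster 4 took 38 cells (4.95%), cluster 8 with MHC class II genes took 18 and the basophil and mast cell-like cluster 9 took 7. The unnamed clusters 0 and 1, which together held most noncycling cells, took 3 and 8. At a clustering resolution of 1.0 the most frequent cluster took 48.6% of these cells and the macrophage-like clusters 70.0%.

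In Ndrg2-KO DCs no single cluster took most of the cycling cells. The most frequent one, cluster 1, took 380 (41.9%, 38.7 to 45.2), held 18.3% of noncycling cells and was led by the collagenase gene Mmp13, Igf2bp2, Ccl2 and Fabp4. Cluster 3, led by Plet1, Flt1, Ocstamp and Mgl2, took 259 (28.6%) and held 15.2%. Neither was named, since a name asked for at least 3 genes of 1 list at 2-fold or more over the library's other noncycling cells. Their cycling cells met the macrophage list in 89.2% and 87.3% of cases and the premature DC list in 99.7% and 100%. The missing name therefore does not set them apart from macrophage-like cells. The macrophage-like cluster 2, led by Klk1b9, Retnla and Apoe, took 96 (10.6%) and held 17.9%. The neutrophil-like cluster 5 took 103 (11.4%) and held 5.59%, but 98.1% of its cycling cells met the premature DC list.

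Clusters in which over 50% of noncycling cells met the mature DC list took 7.91%, 12.5% and 7.5% of the cycling cells and held 66.3%, 74.6% and 39.8% of the noncycling ones in untreated, VD3 stimulated and Ndrg2-KO DCs. For VD3 stimulated DCs this includes the 67 cycling cells of cluster 5, and at a resolution of 1.0 such clusters took 25% of the cycling cells. Cycling cells of every library therefore lay mostly outside the mature part of the culture. Since each library was clustered on its own, cluster numbers do not correspond between libraries.

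**Figure D3:**
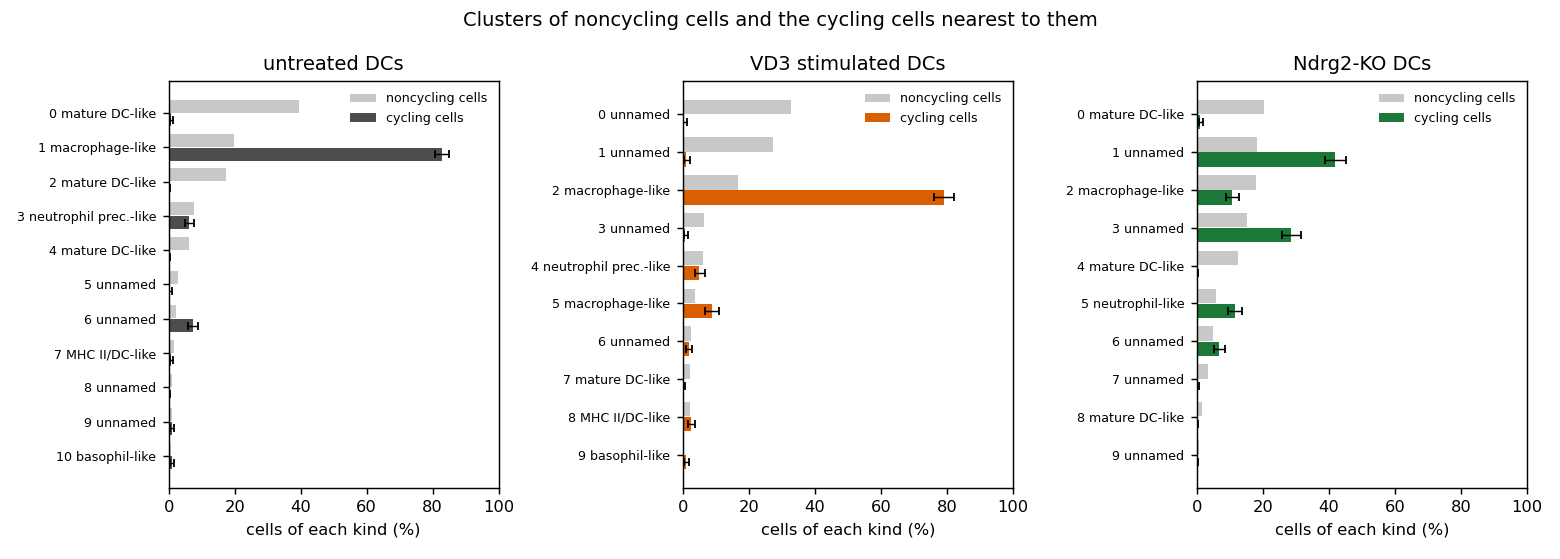
Share of noncycling cells (grey bars) in each cluster and of cycling cells nearest to it (dark, orange or green bars, with exact 95% intervals), in % of each kind (x axis), in the 3 libraries. A single macrophage-like cluster takes 83.0% of the cycling cells in untreated DCs and 79.3% in VD3 stimulated DCs, while clusters 1 and 3 take 41.9% and 28.6% in Ndrg2-KO DCs.

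The cycling cells of the Ndrg2-KO clusters differed among themselves in the genes that named the clusters and in others. Apoe, a lipid carrier of macrophages, stood at 214, 160.5, 1446 and 349.6 CPM in the cycling cells of clusters 1, 3, 2 and 5. Gpnmb, a lysosomal glycoprotein gene of lipid-laden macrophages, stood at 1601, 542, 845 and 161 CPM. Fn1, which encodes fibronectin, was at 2569, 3263, 3233 and 904 CPM, so that cluster 5 was lowest for both Gpnmb and Fn1. S100a8 stood at 1637 CPM in cluster 5 against 25764 CPM in the neutrophil precursor-like cluster of untreated DCs. Ccnd2, a D-type cyclin gene, stood at 122, 238, 62.0 and 247 CPM in clusters 1, 3, 2 and 5.

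Position in the cycle was read from lists of 42 S phase and 48 G2/M genes that hold none of the marker genes of the rule. Drawn to 5000 UMIs, a cycling cell held on average 13.7 S phase UMIs in untreated, 11.7 in VD3 stimulated and 12.4 in Ndrg2-KO DCs, and 27.2, 32.1 and 26.1 G2/M UMIs. The other cells held 3.82, 3.11 and 2.68 S phase UMIs and 5.88, 5.99 and 3.99 G2/M UMIs. S phase UMIs were 33.5% of the summed UMIs of the lists in untreated cycling cells (33.1 to 34.0), 26.8% in VD3 stimulated (26.3 to 27.3) and 32.1% in Ndrg2-KO cells (31.7 to 32.6). VD3 stimulated cycling cells thus leaned furthest towards G2/M. G2/M UMIs outnumbered S phase UMIs in 77.7%, 81.6% and 73.3% of cycling cells, and 126, 60 and 109 cells lay within 2 UMIs of equality. The rule asks for Mki67 and Top2a, which peak late in the cycle, and 241, 245 and 304 cells with at least 5 S phase genes and neither marker stayed outside it.

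**Figure D4:**
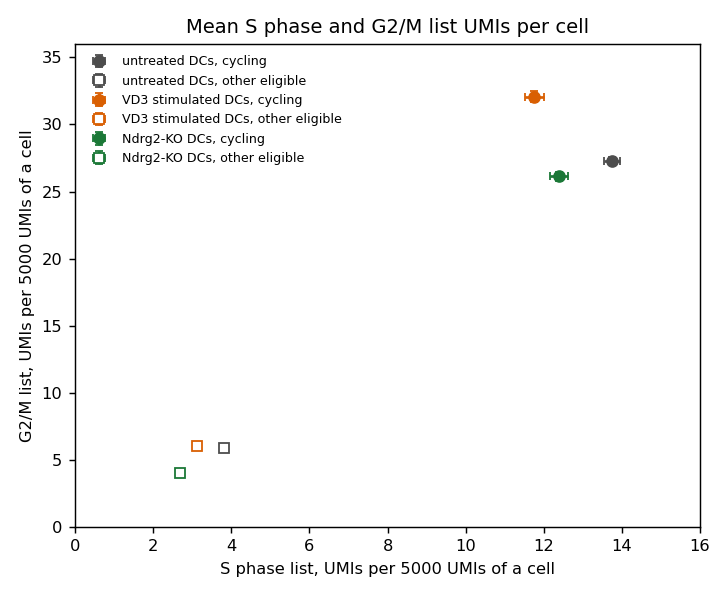
Mean UMIs of the S phase list (x axis) and of the G2/M list (y axis) per cell, each cell drawn to 5000 UMIs, for cycling (filled) and other eligible cells (open) of the 3 libraries, with exact 95% Poisson intervals. VD3 stimulated cycling cells lie highest, at 32.1 G2/M UMIs, and furthest left among the cycling cells, at 11.7 S phase UMIs.

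The S phase share was also read by nearest cluster, and some of these clusters hold few cycling cells or cells of more than 1 list. In untreated DCs, S phase UMIs were 34.8% in the cycling cells of the macrophage-like cluster, 26.0% in those of the neutrophil precursor-like cluster and 17.9% in the 10 cells of the basophil and mast cell-like cluster. In VD3 stimulated DCs they were 26.7% in the macrophage-like cluster 2, 24.8% in the neutrophil precursor-like cluster (with intervals of 26.2 to 27.2 and 23.1 to 26.5 that overlap) and 43.6% in the 18 cells of the cluster with MHC class II genes. In Ndrg2-KO DCs they were 36.7% and 35.3% in clusters 1 and 3 and 21.9% and 23.2% in clusters 2 and 5. Among the clusters named macrophage-like, cluster 2 of Ndrg2-KO DCs thus had the lowest S phase share, below the VD3 stimulated cluster, so the order over all cycling cells did not hold within them. With under 5% mitochondrial UMIs, the shares over all cycling cells were 33.0%, 25.5% and 27.9%.

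Genes were then compared between cycling cells of the libraries, from UMIs summed over cells (39268255, 20349088 and 24185235 in untreated, VD3 stimulated and Ndrg2-KO DCs). Log2 ratios are of CPM, with the untreated cells as the second term in both comparisons, and a gene was called from a fold of at least 2. Of 11340 genes with at least 50 UMIs in both sums together, 501 were called higher in VD3 stimulated cycling cells (4.42%) and 729 lower (6.43%). Of 11501 genes, 950 were called higher in Ndrg2-KO cycling cells (8.26%) and 842 lower (7.32%). Over all genes tested, the median log2 ratio was -0.08 with VD3 and -0.09 in Ndrg2-KO cells. With under 5% mitochondrial UMIs, 316 genes were called higher and 801 lower with VD3, and 530 higher and 489 lower in Ndrg2-KO cells. Both comparisons rest on the same untreated cells.

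Genes of DNA replication and mitosis were seldom called between the libraries, in cells that the rule had chosen by other genes of the cycle. With VD3, 0 of 42 S phase genes were called higher and 1 lower (median log2 ratio -0.30), and 2 of 48 G2/M genes higher and 0 lower (median 0.29). In Ndrg2-KO cells 0 and 1 S phase genes and 0 and 0 G2/M genes were called. In the other cells, which fail the rule and hold the 359, 310 and 89 cells removed for Elane or Prtn3, the median log2 ratios were -0.57 and -0.14 with VD3 and -0.89 and -0.98 in Ndrg2-KO DCs for the S phase and G2/M lists. The gene called lower in both was Cdca7, a chromatin factor that works with the remodeller Hells, at 24.8, 12.3 and 7.03 CPM in untreated, VD3 stimulated and Ndrg2-KO cycling cells, with log2 ratios of -1.0 (-1.21 to -0.80) and -1.82 (-2.06 to -1.58). The first lies at the threshold and is not past it relative to the median of all genes (-0.08). The G2/M genes called higher with VD3 were Cenpa, the centromeric histone gene, at 189, 412 and 281 CPM, and Cenpf, a kinetochore gene, at 123, 247 and 115 CPM. The mitotic kinase gene Cdk1 stood at 160.4, 183 and 230.0 CPM and its cyclin gene Ccnb1 at 98.6, 124 and 119 CPM, both within a 2-fold range across libraries.

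The D-type cyclins, which link growth factor signals to the cycle, differed more. Ccnd1 stood at 74.6 (71.9 to 77.3) CPM in untreated, 18.2 (16.4 to 20.1) in VD3 stimulated and 19.3 (17.6 to 21.1) in Ndrg2-KO cycling cells, so that it was lower in both treated libraries, by log2 ratios of -2.04 (-2.20 to -1.88) and -1.95 (-2.09 to -1.81). Ccnd3 stood at 128, 46.0 and 50.1 CPM, again lower in both, by -1.48 (-1.58 to -1.38) and -1.36 (-1.45 to -1.27). Ccnd2 ran apart from its relatives, at 174, 414 and 162 CPM, being higher with VD3 by 1.25 (1.20 to 1.29) and within the 2-fold range in Ndrg2-KO cells at -0.11 (-0.16 to -0.05). Their kinase gene Cdk6 was at 107, 41.7 and 50.9 CPM, lower by -1.36 and -1.07, whereas Cdk4 at 136, 109.8 and 128 CPM stayed within the 2-fold range. With under 5% mitochondrial UMIs, Ccnd3 (-0.85) and Cdk6 (-0.89) were no longer called with VD3, and Cdk6 in Ndrg2-KO cells (-0.98) was not called under median-ratio scaling.

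The other cells showed part of these differences. In them Ccnd1 was at 35.4, 9.39 and 16 CPM, Ccnd2 at 239, 386 and 172 CPM and Ccnd3 at 92.8, 46.5 and 33.2 CPM in the 3 libraries, which ranks the libraries as in cycling cells for Ccnd1 and Ccnd2, but Ccnd2 and Ccnd3 were there within a 2-fold range between VD3 stimulated and untreated DCs. Of 12 cyclin and Cdk genes, 1 was called higher and 3 lower with VD3 in cycling cells, and 0 and 3 in Ndrg2-KO cells. The same counts were found when only the cycling cells with a premature DC or macrophage list were summed, where 4.20% of all genes were called higher and 6.78% lower with VD3, and 8.29% and 7.14% in Ndrg2-KO cells.

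Inhibitors of the Cdks gave a few calls each way, on too few genes to set apart from the background shares given above for all genes. Of 9 such genes and pocket proteins with enough UMIs, 1 was called higher and 1 lower with VD3, and 2 and 1 in Ndrg2-KO cells. Cdkn1b, which encodes p27, stood at 18.7, 38.1 and 24 CPM in untreated, VD3 stimulated and Ndrg2-KO cycling cells, with log2 ratios of 1.02 (0.88 to 1.17) and 0.36 (0.20 to 0.51), and the first was 0.98, no longer a call, among cells with a premature DC or macrophage list. Cdkn1a, which encodes p21, was at 531, 296 and 310.3 CPM with ratios of -0.84 and -0.78, within the 2-fold range in both. Cdkn2a, the gene of p16 and p19Arf, was at 3.46, 1.23 and 8.93 CPM, lower with VD3 (-1.50 (-2.17 to -0.87)) and higher in Ndrg2-KO cells (1.37 (1.05 to 1.69)). Cdkn2c, the p18 gene, at 32.8, 49.8 and 65.7 CPM reached 1.0 in Ndrg2-KO cells. Cdkn2d, the p19 gene of the same family, was at 46.3, 58.0 and 88.9 CPM in cycling cells against 15.5, 20.9 and 18.7 CPM in the others. Cdkn2b, the p15 gene, was lower in cycling than in other cells of each library, at 6.32, 7.91 and 3.06 against 24.2, 40.1 and 9.02 CPM. It was the gene called lower in Ndrg2-KO cycling cells (-1.05), a call that ended under median-ratio scaling (-0.96), as a mean of per-cell CPM (-0.82), without the highest doublet scores (-0.47) and with under 5% mitochondrial UMIs (-0.69).

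Of 11 transcription factors of the cycle, 0 were called higher and 1 lower with VD3, and 0 and 2 in Ndrg2-KO cells. Over all genes 4.42% were called higher and 6.43% lower with VD3, and 8.26% and 7.32% in Ndrg2-KO cells. These 11 genes are too few to set apart from those shares. Myb, a factor of blood progenitors, stood at 3.23, 2.65 and 0.579 CPM in untreated, VD3 stimulated and Ndrg2-KO cycling cells, with a ratio of -2.48 (-3.39 to -1.68) in the last. Mycl, a relative of Myc that is typical of DCs, was at 5.78, 5.90 and 2.07 CPM, lower in Ndrg2-KO cells by -1.48 and lower in cycling than in other cells (18.8, 14.2 and 10.3 CPM) of each library. E2f7, a repressor of E2F targets, was at 16.2, 8.06 and 16.5 CPM and is the gene called lower with VD3, again at the threshold (-1.0) and not past it relative to the median of all genes, and Foxm1, the driver of G2/M genes, at 21.5, 22.4 and 30.6 CPM.

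Receptors for the growth factors of these cells were called about as often as genes at large. Between cycling and other cells, 0 of 8 receptor genes were called higher and 0 lower in untreated DCs, 1 and 0 in VD3 stimulated DCs, and 0 and 1 in Ndrg2-KO DCs. Over all genes in that contrast, 7.29%, 9.77% and 6.41% were called higher and 7.64%, 7.75% and 4.27% lower. Csf2ra, the ligand-binding chain of the GM-CSF receptor, stood at 186, 138 and 191 CPM in untreated, VD3 stimulated and Ndrg2-KO cycling cells, and Csf2rb, its signalling chain, at 981, 779.6 and 786 CPM. Csf1r was at 220.5, 210.2 and 220.3 CPM in the cycling cells and at 119.8, 91.7 and 222 CPM in the others, so that its level in cycling cells was nearly equal in all 3 libraries. Kit, the stem cell factor receptor, was at 1.07, 48.2 and 0.703 CPM in cycling cells, and VD3 stimulated cells stood apart from the rest with a log2 ratio of 5.49 (5.05 to 5.97). Flt3, the receptor that drives conventional DC development, was at 1.86, 0.786 and 0.331 CPM.

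DC identity genes were present at unequal levels. Itgax, which encodes CD11c, stood at 202, 143 and 289.6 CPM in untreated, VD3 stimulated and Ndrg2-KO cycling cells, and H2-Ab1, a class II gene, at 870.3, 759.8 and 339 CPM. Zbtb46, the defining factor of conventional DCs, was at 10.2, 9.88 and 4.18 CPM in cycling cells, lower than the 23.0, 30.2 and 8.63 CPM of the others, and Cd209a at 3.57, 0.295 and 0.165 CPM was almost absent. Of 9 genes of this list, 0 were called higher and 3 lower with VD3, and 0 and 6 in Ndrg2-KO cells. Ciita, the switch for class II genes, was among those lower in both, at 56.4, 22.5 and 13.8 CPM. In Ndrg2-KO cycling cells the class II genes H2-Ab1 (-1.36 (-1.39 to -1.33)) and H2-Eb1 (-1.22 (-1.26 to -1.18)) were lower than in untreated ones.

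Genes of maturation separated cycling from other cells in every library. Of the 8 genes of the mature DC list, 8, 7 and 7 were called lower and 0 higher in cycling cells of untreated, VD3 stimulated and Ndrg2-KO DCs, with median log2 ratios of -2.70, -2.46 and -2.60. Over all genes the medians were 0.24, 0.18 and 0.08. Ccr7 stood at 88.1, 152 and 37.2 CPM in cycling cells and at 579.6, 874 and 244 CPM in the others. Ccl22, a chemokine of mature DCs, was at 324, 196 and 97.7 against 1652, 979 and 514 CPM, and Fscn1, the actin bundler of their dendrites, at 42.1, 39.0 and 6.37 against 300.4, 213 and 49.5 CPM. Each of these genes was therefore lower in the cycling cells of all 3 libraries. When only cells with a premature DC or macrophage list were compared, 0, 1 and 7 of the 8 genes were called lower in cycling cells, with medians of -0.14, -0.57 and -1.69.

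The same restriction selects cells by the premature DC and macrophage genes, so their counts under it are given as a description only. Against all other cells, 3, 3 and 1 of 8 premature DC genes and 3, 8 and 1 of 12 macrophage genes were called higher in cycling cells. Among cells with a premature DC or macrophage list, 0, 0 and 1 premature DC genes and 0, 0 and 1 macrophage genes were called higher, and 0, 1 and 0 and 2, 1 and 1 lower. The S phase list had 24, 32 and 37 of 42 genes called higher, and the G2/M list 42, 45 and 46 of 48. The rule chose the cells by other genes of the cycle, so these counts describe that choice too. The background share called higher in this narrower contrast was 3.54%, 4.24% and 6.12%, and 1.20%, 1.30% and 2.68% were called lower.

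**Figure D5:**
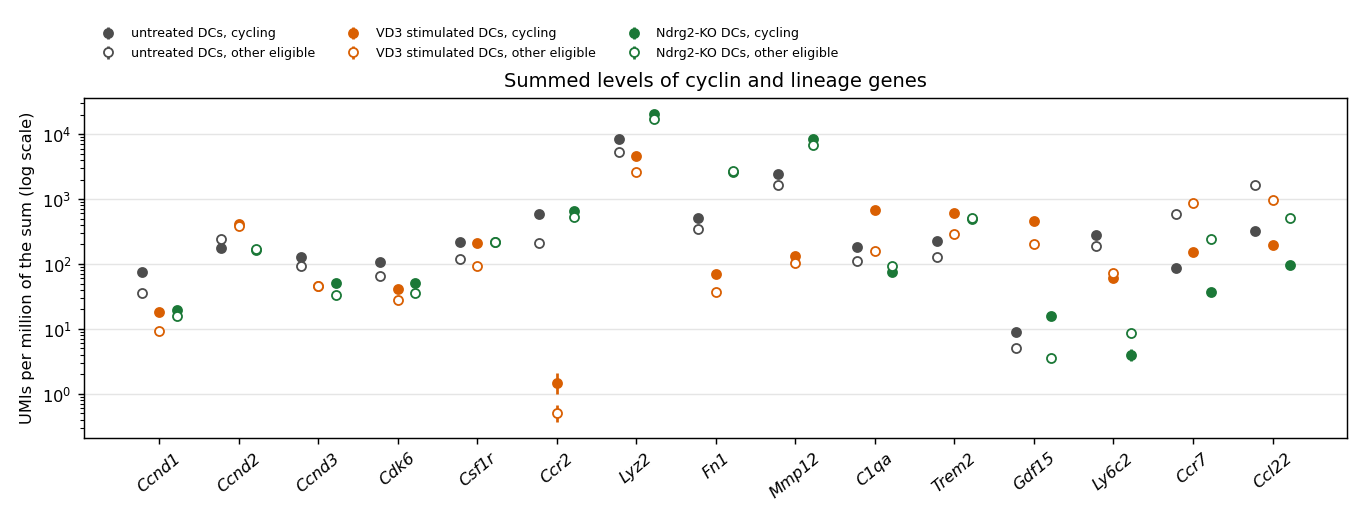
Summed level (CPM, log scale) of cyclin, receptor and lineage genes in cycling (filled) and other eligible cells (open) of the 3 libraries, with exact 95% Poisson intervals. Ccnd1 and Ccnd3 are lower in VD3 stimulated and Ndrg2-KO than in untreated cycling cells, Ccr2 falls to 1.47 CPM with VD3, and Ccr7 and Ccl22 are lower in cycling than in other cells of each library.

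Premature DC genes were mostly lower in VD3 stimulated than in untreated cycling cells. With VD3, 0 premature DC genes were called higher and 5 of 8 lower, with a median log2 ratio of -1.81 against -1.32 in the other cells. Ccr2, the chemokine receptor of monocyte-derived cells, stood at 580.0 (573 to 588) CPM in untreated and 1.47 (0.995 to 2.10) CPM in VD3 stimulated cycling cells, a log2 ratio of -8.62 (-9.19 to -8.11), and the ratio in the other cells was -8.73. Mmp12, the macrophage elastase gene, was at 2444 and 131 CPM (-4.23) and Fn1 at 519 and 71.1 CPM (-2.87). All of these genes are members of the list by which premature DC cells were counted. Lyz2, the lysozyme gene, at 8532 and 4684 CPM (-0.87) and Csf1r (-0.07) stayed within the 2-fold range.

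Macrophage genes ran in both directions with VD3, 6 of 12 being called higher and 3 lower, with a median of 1.11. The complement genes C1qa, C1qb and C1qc, which encode the chains of C1q, stood at 181 and 683, 438 and 1124, and 163 and 424 CPM in untreated and VD3 stimulated cycling cells. C1qa rose by a log2 ratio of 1.91 (1.87 to 1.95) in cycling cells and stood at 0.55 (0.52 to 0.59) in the others. Trem2, a lipid receptor of macrophages, went from 225 to 619 CPM, Ms4a7 from 1.66 to 69.2 and Gdf15, a stress cytokine gene, from 9.04 to 463. These genes are members of the macrophage list too, so its share in VD3 stimulated DCs is not read as lineage alone. Mrc1 (-1.64), Fcgr1, an Fc receptor gene (-1.73), and Apoe (-1.07) were lower. The call for Apoe ended under median-ratio scaling (-0.99), without the highest doublet scores (-0.84) and among cells with a premature DC or macrophage list (-0.71).

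The vitamin D target Cyp24a1, the enzyme that degrades the hormone, checked the stimulus. It had 14026 UMIs in VD3 stimulated cycling cells and 0 in untreated and Ndrg2-KO ones. With the count of untreated cycling cells set to the floor of 3, it was 9022-fold higher, a log2 ratio of 13.14 with a lower limit of 12.84. Its level was 689 CPM in cycling cells and 239 CPM in the other VD3 stimulated cells. At 5000 UMIs it was seen in 80.2% of cycling and 30.2% of the other VD3 stimulated cells, and in 50.2% of the cells with the neutrophil list and neither DC list (114 of 227). No cell type of this library served as a background for the gene, and the part of free RNA in these shares was not tested. Vdr, the receptor, stood at 31.5, 140.1 and 34.8 CPM in untreated, VD3 stimulated and Ndrg2-KO cycling cells, with a log2 ratio of 2.16 (2.06 to 2.25). Of 4 vitamin D genes, 2 were called higher and 1 lower with VD3, the last being the partner receptor gene Rxra (-1.80). In Ndrg2-KO cells 1 of 3 was called higher, Cd14 (1.76), the co-receptor for bacterial lipopolysaccharide.

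Beyond the lists, the genes with the largest rise with VD3 in cycling cells included Slco2b1, an organic anion transporter gene (0.153 to 22.0 CPM), Nrg2, a neuregulin gene (0.229 to 11.5), Nppc, a natriuretic peptide gene (0.331 to 15.0), Klhl33, Ifitm6 (2.60 to 113) and Cd28 (0.433 to 15.6). Together with Cyp24a1, Gdf15, Kit and Ms4a7 these were the 10 with the largest rise. Among cells with under 5% mitochondrial UMIs the log2 ratio went from 13.14 to 10.61 for Cyp24a1 (against the floor), from 7.17 to 5.95 for Slco2b1, from 5.64 to 4.95 for Nrg2, from 5.17 to 4.51 for Cd28 and from 5.44 to 6.13 for Ifitm6. Among the 10 with the largest fall were Ccr2, B3galt2, Smim5, the lectin gene Asgr2 (173 to 4.32 CPM), Slc36a2, Cdh1, which encodes E-cadherin (95.3 to 2.56), B3gnt7, Ccdc80 and Ch25h, the cholesterol 25-hydroxylase gene (7.28 to 0.246). B3galt2 rested on 1 UMI with VD3 against 225, a log2 ratio of -6.87 (-12.18 to -4.37). With under 5% mitochondrial UMIs the ratios of B3galt2 (-1.83), Slc36a2 (-2.03) and Ch25h (-2.08) were much smaller, and those of B3gnt7 (-3.88), Ccdc80 (-3.97), Cdh1 (-4.48) and Smim5 (-4.65) somewhat smaller.

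Granulocyte genes differed between the summed cycling cells of the libraries. With VD3, 4 of 8 neutrophil precursor genes were called higher and 1 lower. Ngp stood at 16.9 and 78.5 CPM and Camp, a cathelicidin gene, at 0.993 and 25 CPM. When only the cells with a premature DC or macrophage list were summed, 0 of these genes were called higher and 1 lower. In the same way 4 of 7 basophil and mast cell genes were called higher with VD3 in all cycling cells, and 0 of 4 higher and 4 lower in the restricted sum. The neutrophil list had 1 of 6 genes called higher and 0 lower, and the monocyte list 1 of 8 higher and 4 lower, with Ly6c2 at 277 and 61.7 CPM.

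Ndrg2-KO cycling cells had more premature DC and macrophage RNA than untreated ones for several genes. Of 8 premature DC genes 4 were called higher and 2 lower, with a median log2 ratio of 0.72 against 1.5 in the other cells. Lyz2 stood at 8532 (8503 to 8561) and 20544 (20487 to 20602) CPM in untreated and Ndrg2-KO cycling cells, Mmp12 at 2444 and 8538 CPM and Fn1 at 519 and 2619 CPM. Cx3cr1, the fractalkine receptor gene, was at 4.15 and 14.1 CPM. The genes that were lower were the progenitor gene Cd34 (-1.97) and Chil3 (-1.77), a chitinase-like gene. Ccr2 at 580.0 and 652 CPM stayed within the 2-fold range.

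Of 12 macrophage genes 5 were called higher and 1 lower in Ndrg2-KO cycling cells, with a median of 0.71 against 1.16 in the other cells. Gpnmb stood at 96.3 and 1052 CPM (3.45 (3.40 to 3.50)) and Apoe at 14.6 and 328 CPM (4.49 (4.36 to 4.61)). C1qa was the gene called lower (-1.28). Of the mature DC genes 0 were called higher and 5 of 8 lower, with a median of -1.07, and Fscn1 had the lowest ratio (-2.72). Ccl5, a chemokine gene of that list, was level at 0.01.

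The genes with the largest rise in Ndrg2-KO cycling cells included Col24a1, Chil1 (0.331 to 45.2 CPM), the arginase gene Arg1 (7.13 to 667), the chemokine gene Ccl24 (0.815 to 64.2), Klra17, Fabp7 (0.815 to 62.9), Colec12, the protease gene Ctse (0.688 to 40.7) and Mamdc2. Col24a1 had 306 UMIs in Ndrg2-KO and 0 in untreated cycling cells. At under 5% mitochondrial UMIs its log2 ratio against the floor went from 7.37 to 4.37, that of Colec12 from 5.96 to 4.16 and that of Klra17 from 6.30 to 5.11, while those of Chil1 (7.09 to 7.84) and Ccl24 (6.30 to 7.14) rose. The growth factor gene Vegfa, which the study followed, stood at 2.24, 11.6 and 55.5 CPM in untreated, VD3 stimulated and Ndrg2-KO cycling cells and at 3.89, 14.9 and 90.6 CPM in the others.

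Several of the largest falls in Ndrg2-KO cycling cells were of genes of basophils, progenitors and B cells. Prss34 and Mcpt8, basophil proteases, had 924 and 769 UMIs in untreated and 0 in Ndrg2-KO cycling cells, and Sept3 and Igkc had 313 and 296 against 0. Of the Igkc UMIs in untreated cycling cells, 1 was in cells with under 5% mitochondrial UMIs. Of 7 basophil and mast cell genes 6 were called lower and 1 higher, while 0 of the 907 Ndrg2-KO cycling cells met that list. Ms4a3, a progenitor gene, was at 22.0 and 0.372 CPM. Of 3 granulocyte-monocyte progenitor genes 3 were called lower, of 8 neutrophil precursor genes 5, of 6 neutrophil genes 4 and of 3 B cell genes 3, and 1 neutrophil precursor and 1 neutrophil gene were called higher. When only cells with a premature DC or macrophage list were summed, 2 of 4 basophil and mast cell genes, 2 of 2 progenitor, 5 of 8 neutrophil precursor and 4 of 6 neutrophil genes were called lower, and 0 B cell genes had enough UMIs. Ly6c2, of inflammatory monocytes, stood at 277 and 4.01 CPM (-6.11 (-6.41 to -5.82)), Id3 at 69.7 and 0.992 CPM and the immediate early gene Fosb at 50.7 and 0.786 CPM. Kctd14 and Cldn1 completed the 10 largest falls. In cells with under 5% mitochondrial UMIs the ratio of Id3 went from -6.13 to -8.02, and those of Sept3 (-4.33), Kctd14 (-4.97), Ms4a3 (-4.67), Cldn1 (-4.24), Prss34 (-6.80) and Mcpt8 (-6.43) were smaller than over all cycling cells.

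Genes on no cycle list were also highest in cycling cells. Iqgap3, a scaffold of dividing cells, stood at 24.5 CPM in untreated cycling cells against 2.57 in the others, and Prc1, which bundles the microtubules of the dividing spindle, at 146 against 19.5. Kif14 and Kif4, mitotic motors, Aspm and Mxd3, a Myc antagonist, were also among the 10 with the largest ratio in that library.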

How the data were processed

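Single-cell RNA was captured with the 10x Genomics 3′ assay, 1 library per condition. The deposited matrices hold raw UMI counts per gene and barcode, which the authors obtained from Cell Ranger 3.1.0 per the file headers. The study names genome build mm10 and the submitters' processing notes list mm9, and no coordinate was taken from the counts. Only the counts of the 3 DC libraries were used, with Python 3.11.15, NumPy 2.4.6, SciPy 1.17.1, scanpy 1.11.5 and python-igraph 0.11.9. Totals are given per 1000000 UMIs (CPM).

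Cells were kept at 300 genes or more, under 100000 UMIs and under 10% mitochondrial UMIs, and were eligible from 5000 UMIs. For lists and phase, 5000 UMIs were drawn per cell without replacement, with a seed of 1. Intervals are Clopper-Pearson for shares, exact Poisson for CPM and conditional binomial for ratios. A gene needed 50 UMIs in the compared sums together, a count of 0 was set to 3, and no fold was given where both sums were at or under 3. With 1 library per condition there was no test, and called means a fold of at least 2.

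Noncycling cells were clustered per library (10000-UMI log-normalization, 2000 variable genes without cycle genes, 15 principal components, 15 neighbours, Louvain resolution 0.5). A cluster was named from at least 3 markers of 1 list, where no other list had as many. A marker counted at 50 CPM or more and at 2-fold or more over the other noncycling cells of its library. The B-like call for cluster 6 of VD3 stimulated DCs was dropped because its leading genes mixed lineages. Scrublet's own threshold marked 1, 0 and 1 cells, so it had not worked, and the highest 6% of scores were left out as an alternative.

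Any gene of the lists could be named, as could the 10 largest rises and falls per comparison and the 10 genes highest in cycling cells off the cycle lists, with at least 200 UMIs in 1 library and without mitochondrial and ribosomal protein genes. The cells, lists and rules were chosen with earlier results of these data known. On simulated counts, the ratio interval held the true value for 93.5% of 200 changed genes with VD3 (of 11340 genes) and 96.5% in Ndrg2-KO cells (of 11501). These counts were drawn by the Poisson model that the interval assumes, so they leave out the spread between cells. Wound libraries were not analysed here beyond their number of eligible cells. Some genes that this rule allows are not reported here.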

Additional observations from a re-analysis of the deposited data

How the results depend on the processing

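Percentages are in the order untreated, VD3 stimulated and Ndrg2-KO DCs. The cycling share was 18.2% and 11.2% in the first 2 from 3000 UMIs per cell, 21.4%, 13.8% and 14.4% from 10000 UMIs, 11.7%, 8.22% and 5.95% at 5000 drawn UMIs, and 25.1%, 16.9% and 13.4% with Elane or Prtn3 cells kept. Without the highest doublet scores it was 17.5% in untreated and 11.4% in Ndrg2-KO DCs. With under 5% mitochondrial UMIs it was 16.3%, 7.58% and 13.4%. The S phase share was 35.0%, 29.0% and 34.1% as a mean over cells and 33.0%, 25.5% and 27.9% under 5% mitochondrial UMIs.

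Among cycling cells, the premature DC list was met by 98.4%, 79.9% and 100% with 2 genes asked for, 81.9%, 12.3% and 94.7% with 4, 91.9%, 40.4% and 98.4% under 5% mitochondrial UMIs and 98.3%, 80.6% and 100% at full depth. The macrophage list was met by 75.3%, 89.0% and 95.5%, by 37.2%, 67.7% and 67.7%, by 37.2%, 50% and 68.1%, and by 88.1%, 92.3% and 97.9% in the same 4 settings. The mature DC list was met by 38.4%, 49.8% and 53.6% with 2 genes, 17.2%, 19.8% and 10.7% with 4, 10.6%, 17.0% and 19.2% without the highest doublet scores, 71.3%, 65.2% and 85.1% at full depth, and by 16.8% and 12.5% in the first 2 libraries under 5% mitochondrial UMIs.

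The cycling share within the premature DC list was 32.5% and 13.1% in untreated and Ndrg2-KO DCs with 2 genes and 39.9%, 28.1% and 16.2% with 4. Within the macrophage list it was 34.1% and 23.7% in the first 2 libraries with 2 genes, 32.6% in VD3 stimulated DCs with 4, and 39.6%, 23.2% and 13% under 5% mitochondrial UMIs. Within the mature DC list it was 11.6%, 8.05% and 9.58% with 2 genes, 6.54%, 3.92% and 3.74% with 4, 3.64%, 3.15% and 5.0% without the highest doublet scores, and 5.03%, 1.44% and 7.96% under 5% mitochondrial UMIs. Of the nearest clusters, the most frequent took 70.0%, 48.6% and 37.7% at resolution 1.0. In VD3 stimulated DCs the macrophage-like clusters took 78.7% with 30 principal components and 70.0% at resolution 1.0, where clusters with the mature list took 25%.

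Called genes were 306 higher with VD3 and 590 higher in Ndrg2-KO cells from 200 UMIs. With no minimum of UMIs they were 1056 higher and 1316 lower with VD3, and 1857 and 1458 in Ndrg2-KO cells. Under 5% mitochondrial UMIs they were 316 higher and 801 lower with VD3, and 530 and 489 in Ndrg2-KO cells. Fewer genes enter from 200 UMIs and more with no minimum, and for the rest the cause was not tested. Of the single-gene ratios recomputed, 320 stayed within the interval and 93 moved outside it, and Igkc in Ndrg2-KO cells was not given under 5% mitochondrial UMIs.

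No paired analysis was possible because each condition had 1 library, and for the same reason no replicate was left out. Depth limits the lists, which miss genes at 5000 UMIs, and the intervals carry no spread between cultures.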
